A study of Mus musculus with 8 samples.

Results

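The red cell membrane skeleton is the protein meshwork under the erythrocyte membrane, and 9 of its genes are described here in cultured mouse erythroid progenitors. They are Sptb, Ank1, Epb42, Epb41, Mpp1, Add1, Add2, Dmtn and Tmod1, taken from a list of spectrin, ankyrin, protein 4.1, adducin and related genes by symbol and read in the count files by Ensembl gene ID. All 9 of 9 were found among 37620 gene IDs, and all 9 were among the 15355 genes that passed a filter on low counts and were tested. The lowest count of any of them in any library was 299, for Dmtn.

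Spectrin forms long flexible rods that meet at short actin filaments and so lay a net beneath the lipid bilayer. The net is fastened to the membrane at 2 kinds of contact: ankyrin with protein 4.2 ties spectrin to the anion exchanger band 3, and protein 4.1 with p55 ties the spectrin-actin junction to glycophorin C. Adducin, dematin and tropomodulin bind the actin filament itself, and erythroid cells build the whole skeleton during terminal differentiation. Inherited loss of several of these proteins makes red cells spherical or elliptical and shortens their life.

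RNA-seq after removal of ribosomal RNA covered 8 libraries of C57BL/6 fetal liver erythroid progenitors, taken at E14.5, purified by magnetic sorting and grown for 24 h with erythropoietin. In the Bloodlinc knockdown, 2 libraries carried hairpins 1 and 2 against the long noncoding RNA Bloodlinc, and 1 library carried its control hairpin. In the hnRNPU knockdown, 2 libraries carried hairpins 1 and 2 against hnRNPU, a nuclear RNA-binding protein, and 1 library carried its control hairpin. In the overexpression pair, 1 library carried a Bloodlinc vector and 1 an empty vector. All 8 libraries share strain, stage and culture. The 2 hairpins of a target are different sequences used as replicates. The labels do not say whether libraries came from separate cultures or animals, so each p-value reflects no more than the spread among these libraries.

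Depth ranged from 23682993 to 34540691 counts in genes in 6 libraries, but was 2931627 and 2612916 counts in hnRNPU hairpins 1 and 2. The share of counted reads outside genes was 89.7% and 86.6% there and 21.7% to 30.1% elsewhere, and IDs that matched no gene symbol took 32.9% and 23.1% of the gene counts there and at most 1.45% elsewhere. These 2 libraries stand apart from the other 6, and the part of this in the hnRNPU values was not tested. Levels are given as CPM, read counts relative to the library total, scaled by the trimmed mean of M-values (TMM CPM). Bloodlinc stood at 2.19 and 1.75 TMM CPM in its hairpin libraries and 4.46 in their control. Its log2 fold change was −1.18 (SE 0.81, adjusted p = 1 by edgeR's quasi-likelihood test with Benjamini-Hochberg adjustment). Bloodlinc stood at 5.46 TMM CPM with the Bloodlinc vector and 1.26 with the empty vector. Hnrnpu stood at 325 and 373 TMM CPM in its hairpin libraries and 588 in their control, so that the fitted log2 fold change was −0.75 (SE 0.58, adjusted p = 0.730 by the same test). Neither targeted gene passed the threshold of 0.05. Levels differed as much between experiments: Hnrnpu stood at 294 and 214 TMM CPM in the Bloodlinc hairpins and 290 in their control, all below the hnRNPU hairpin libraries, and Bloodlinc was lower in the empty vector library than in its own hairpin libraries. All 12 erythroid markers had counts in every library, but so did all 8 granulocyte and all 8 megakaryocyte markers. Summed levels of the erythroid markers ran from 23938 to 106623 TMM CPM, much of it from globin genes. They lay above the sum of every other marker list in each library, the highest of which was 9254 TMM CPM, for granulocyte markers in hnRNPU hairpin 1.

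Genomic positions and exon lengths come from the GENCODE annotation of GRCm38, whereas the reads were mapped to mm9. Sptb lies on chromosome 12 from 76580488 to 76710547, Ank1 on chromosome 8 from 22974844 to 23150497, and Epb42 on chromosome 2 from 121017891 to 121037072. Epb41 lies on chromosome 4 from 131923413 to 132075321, on the same chromosome as Tmod1 from 46038935 to 46116032. Mpp1 lies on chromosome X from 75109733 to 75131016, Add1 on chromosome 5 from 34573664 to 34632308, Add2 on chromosome 6 from 86028681 to 86124409 and Dmtn on chromosome 14 from 70601263 to 70636048. All 9 are protein-coding, so the 9 genes sit at 9 separate loci. Exons of Tmod1 share 1287 bp with Tstd2 on the opposite strand, exons of Ank1 share 862 bp with the antisense gene Gm15816, and exons of Add2 share 356 bp with the antisense gene Gm44089. Exons of Epb41 share 142 bp and 91 bp with Gm10300 and Gm13063 on the opposite strand, and exons of Mpp1 share 45 bp with Dkc1. The libraries were strand-specific, but the strand setting of the counting is not given in the sources used here. Gm15816 had 0 to 11 counts in the 8 libraries, against 1145 to 45419 for Ank1. Counts were higher for Tstd2, at 40 to 1209 against 347 to 7037 for Tmod1, and for Dkc1, at 56 to 7492 against 1591 to 21798 for Mpp1. In the empty vector library Dkc1 had 6849 counts and Mpp1 7847. The part of opposite-strand reads in the values of these genes was not tested.

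Promoter windows from 250 bases before to 50 bases after the start were at hand for 7 of the 9 genes, as 9 windows of 300 bases from RefSeq on GRCm38.p6. In them 2 pairs of motifs were read on both strands. AGATAA and TGATAA are among the forms bound by GATA factors such as the erythroid master regulator GATA1. CCACACCC and CCCCACCC are among those bound by Krüppel-like factors such as erythroid KLF1. Of the 9 windows, 2 held AGATAA or TGATAA, which is a match in 18.6% of 32817 windows of the same length over all genes. None of the 9 held CCACACCC or CCCCACCC, found in 13% of all windows. Other forms bound by Krüppel-like factors were not searched for, so this absence covers CCACACCC and CCCCACCC only. Other forms of the GATA motif, such as AGATAG, were not searched for either. AGATAG or its reverse complement does occur in windows of Sptb, Epb41 and Add2, and its share over all windows was not taken. The 2 windows with AGATAA are those of Epb42 and Mpp1, genes of the ankyrin contact and of the protein 4.1 contact. They are printed 5′ to 3′ with TTATCT, the reverse complement of AGATAA, in capitals. The match starts 226 bases before the start of Epb42 and 147 bases before that of Mpp1. The window of Epb42 is chr2:121036828-121037127 and that of Mpp1 is chrX:75130967-75131266, both on the minus strand.
Epb42: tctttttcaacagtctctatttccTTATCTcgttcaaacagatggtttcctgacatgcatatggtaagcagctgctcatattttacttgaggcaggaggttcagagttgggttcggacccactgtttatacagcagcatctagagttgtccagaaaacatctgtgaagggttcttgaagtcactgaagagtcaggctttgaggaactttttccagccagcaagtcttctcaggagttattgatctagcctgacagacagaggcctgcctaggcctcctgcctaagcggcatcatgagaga
Mpp1: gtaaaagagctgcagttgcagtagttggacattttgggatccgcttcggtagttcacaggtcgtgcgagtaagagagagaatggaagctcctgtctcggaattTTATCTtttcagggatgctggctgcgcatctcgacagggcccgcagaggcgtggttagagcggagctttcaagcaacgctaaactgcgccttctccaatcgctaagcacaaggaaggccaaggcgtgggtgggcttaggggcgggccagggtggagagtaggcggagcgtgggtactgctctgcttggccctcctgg

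Per kilobase of exon, Sptb, Epb41 and Epb42 were the most abundant of the 9 in the 3 control libraries, with medians of 154, 141 and 134 TMM CPM per kb. Mpp1 followed at 107, Ank1 at 88.1, Add1 at 57.8, Dmtn at 53.0, Add2 at 43.0 and Tmod1 at 34.8 TMM CPM per kb. The ranges of each gene and the next in this order overlapped over the 3 controls, so no neighbours were separated beyond their spread. Within libraries the order was firmer at 2 steps: Mpp1 lay above Ank1 and Add1 above Dmtn in 8 of 8 libraries per kb. Epb42, protein 4.2, varied most between controls, from 34.4 to 313 TMM CPM per kb, a 9.10-fold range. It ranked first of the 9 in the 3 libraries of the Bloodlinc knockdown and at place 3 or 4 in the other 5. Epb41 and Add2 varied least between controls, 2.33-fold and 2.38-fold.

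**Figure D1:**
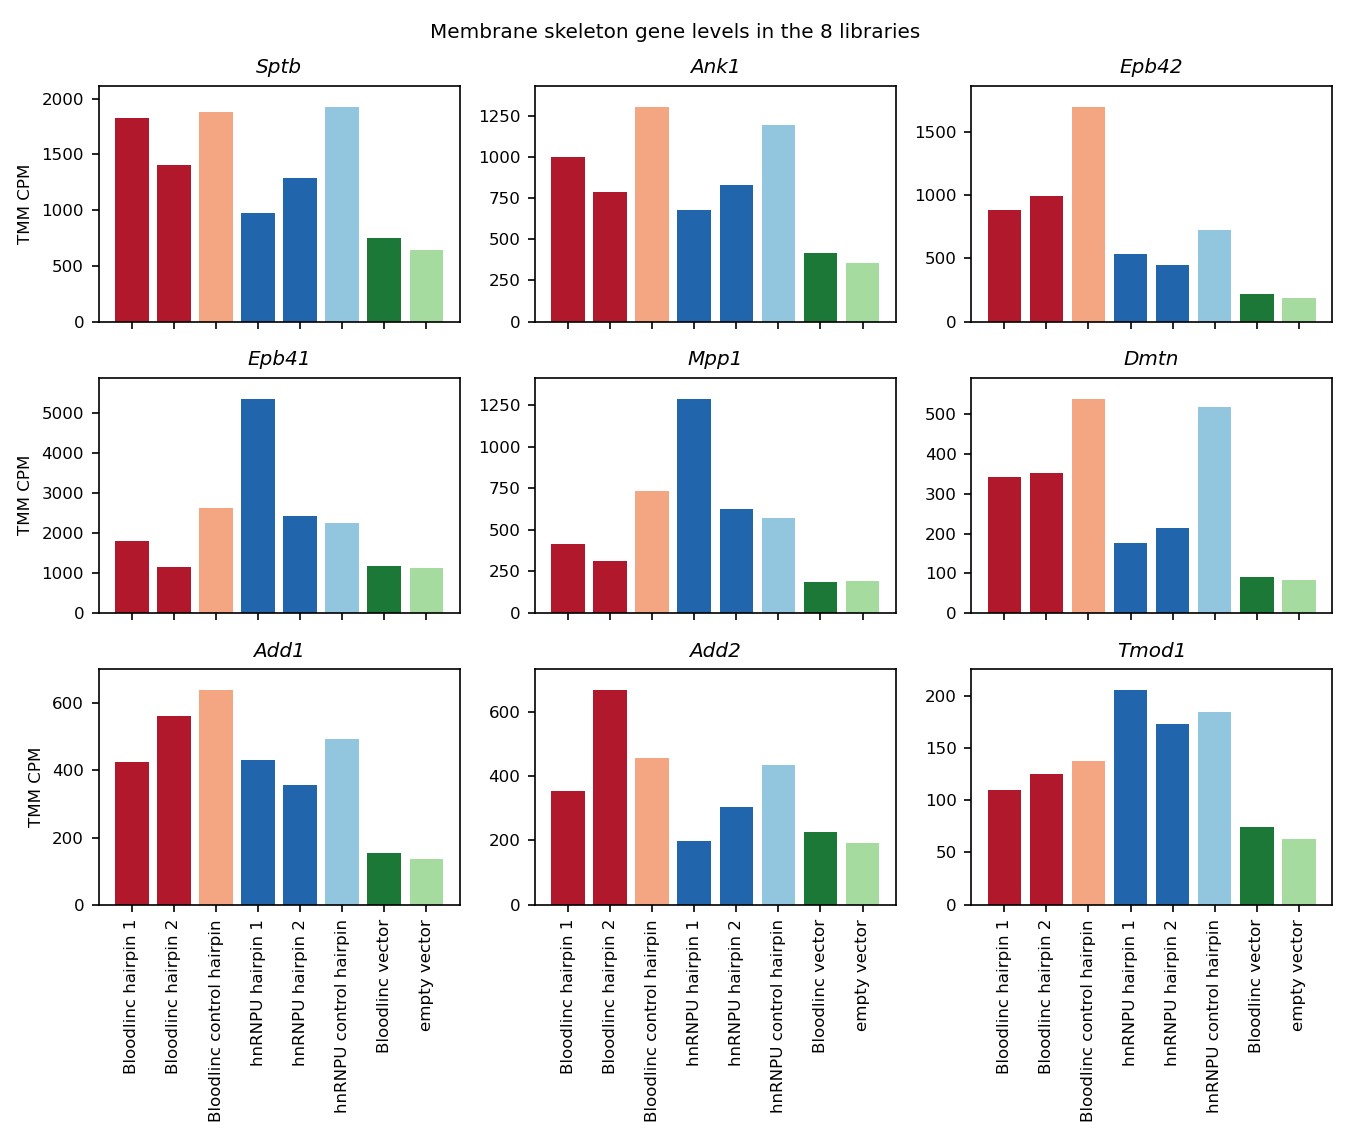
TMM CPM (linear axis from 0) of each of the 9 genes in the 8 libraries, 1 bar per library, with each treated library left of its control. The Bloodlinc vector and empty vector bars are close to each other for all 9 genes and low for most, and the bars of Epb41 and Mpp1 are tallest in hnRNPU hairpin 1, at 5356 and 1289 TMM CPM.

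The erythroid members dominated the beta spectrin, ankyrin and protein 4.1 families. Per kb, Sptb made up 91.1% to 99.8% of the beta spectrin signal over the 8 libraries, with the widely expressed Sptbn1 at 0.216% to 8.95%. Ank1 held at least 99.5% of the ankyrin signal. Epb41 held 92.4% to 99.3% of the summed signal of Epb41, Epb41l1, Epb41l2 and Epb41l3. Tropomodulin was more mixed: Tmod1 held 63.2% to 87.4%, and the ubiquitous Tmod3 held 11.7% to 35.8%. In the adducin family, whose subunits pair as alpha with beta or gamma, Add1 held 34.9% to 60.7%, Add2 23.5% to 45.4% and the gamma subunit gene Add3 2.99% to 23.3%. Mpp1 held 64.1% to 92.6% of the MPP family signal. Of the 22 other family members, 19 passed the filter. None passed the edgeR test in either knockdown, beside 0.124% of all genes in the Bloodlinc and 0.879% in the hnRNPU knockdown.

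**Figure D2:**
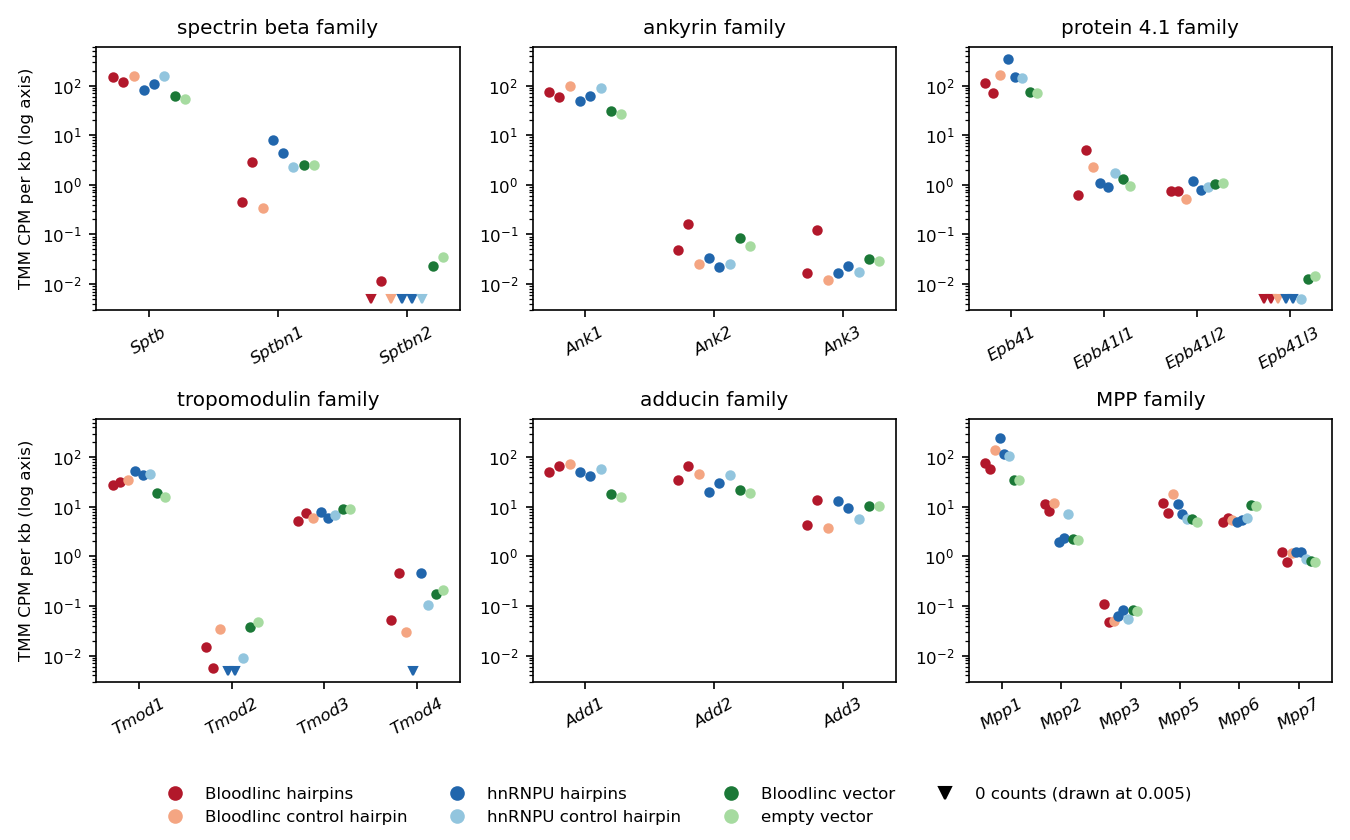
TMM CPM per kb of exon (log axis) of the 9 genes' families, 1 point per library from treated to control within each pair, with triangles for 0 counts drawn at 0.005; Epb42 and Dmtn are not drawn. The erythroid genes Sptb, Ank1 and Epb41 lie well above their relatives in all 8 libraries, while Tmod3 and Add3 lie closer to Tmod1 and Add2.

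The 3 control libraries themselves differed widely in these genes. The summed level of the 9 was 10001 TMM CPM in the Bloodlinc control hairpin library, 8303 in the hnRNPU control hairpin library and 2971 in the empty vector library. The empty vector library was the lowest of the 3 controls for 9 of 9 genes, as for 33.7% of all genes tested. The median log2 range over the 3 controls was 1.86 for the 9 genes and 1.23 for all genes. Against the empty vector library, the median log2 difference of the 9 was 1.86 for the Bloodlinc control hairpin and 1.59 for the hnRNPU control hairpin, beside −0.21 and −0.03 over all genes. Erythroid markers lay lower there too: their summed level was 84920 and 65341 TMM CPM in the Bloodlinc and hnRNPU control hairpin libraries and 23938 in the empty vector library. Counted against erythroid marker counts, the 9 genes gave 11.8, 12.7 and 12.4 counts per 100 marker counts in the Bloodlinc control, the hnRNPU control and the empty vector library. Against globin markers alone the same counts were 23.8, 17.1 and 16.3 per 100, and against the other erythroid markers 23.3, 49.2 and 52.0, so the control libraries also differed in the make-up of the markers. In bulk RNA, fewer cells of a type and less RNA per cell cannot be told apart.

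The Bloodlinc knockdown asked how these genes stand when Bloodlinc is targeted. Of the 9 genes, 8 lay below the control in both hairpin libraries, but 0 passed edgeR's quasi-likelihood test with Benjamini-Hochberg adjustment, which called 0.124% of all genes. Without the hnRNPU hairpin libraries in the fit 0 of 9 passed as well, a setting for which the share of all genes called is not given here. Both hairpins lay below the control for 30.7% of all genes tested. The median log2 fold change was −0.54 over the 9 and 0.06 over all genes; with the 3 control libraries pooled as the control, the median of the 9 was −0.0908. No member had an unadjusted p under 0.05 (0 of 9), against 3.99% of all genes. DESeq2 and limma-voom also called 0 of 9, but over all 15355 genes they called only 5 and 0. Their counts thus say little about the 9. The SEs of the 9 log2 fold changes ran from 0.55 to 0.65, so the counts of 0 do not show that the genes did not differ. Of the 18 hairpin values, 17 fell within the range of the 3 control libraries. That range was wide, at 1.22 to 3.19 on the log2 scale, with the empty vector library lowest for 9 of 9 genes. A moderately lower hairpin value thus falls within it, and no share over all genes was taken.

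At the ankyrin contact, beta spectrin gene Sptb stood at 1825 and 1406 TMM CPM in Bloodlinc hairpins 1 and 2 and 1876 in the control. Ank1, whose product ankyrin-1 binds spectrin on one side and band 3 on the other, stood at 997 and 786 TMM CPM in the hairpins and 1300 in the control. Hairpin 1 of Sptb was nearly level with the control, while Ank1 lay lower with either hairpin. Their fitted log2 fold changes were −0.22 (SE 0.64) for Sptb and −0.54 (SE 0.61) for Ank1. Epb42, whose product binds both ankyrin and band 3, stood at 887 and 996 TMM CPM in the hairpins and 1698 in the control. Both Epb42 values lay well under their control, with a log2 fold change of −0.85 (SE 0.60). Against the control hairpin library of the other knockdown, however, Epb42 was at 0.37, since that library held only 729 TMM CPM.

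At the junction, Epb41, which strengthens the hold of spectrin on actin, stood at 1794 and 1147 TMM CPM in Bloodlinc hairpins 1 and 2 and 2621 in the control. Its partner Mpp1, the membrane scaffold p55, stood at 414 and 311 TMM CPM in the hairpins and 733 in the control. In both genes hairpin 2 was the lowest of the 3 libraries. Mpp1 had the lowest log2 fold change of the 9, −1.02 (SE 0.59, unadjusted p = 0.0856 and adjusted p = 1 by edgeR's quasi-likelihood test), and Epb41 had −0.83 (SE 0.65). Against the hnRNPU control hairpin library, Mpp1 and Epb41 stood at −0.66 and −0.62.

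Among the actin-binding genes, Dmtn, which bundles actin filaments, stood at 342 and 352 TMM CPM in Bloodlinc hairpins 1 and 2 and 539 in the control. The 2 Dmtn values nearly coincide, and its log2 fold change was −0.63 (SE 0.57). Add1, the alpha subunit of the adducin cap, stood at 426 and 562 TMM CPM in the hairpins and 639 in the control. Tmod1, which caps the slow-growing end of the filament, stood at 110 and 125 TMM CPM in the hairpins and 137 in the control. These are small differences, with log2 fold changes of −0.37 (SE 0.59) for Add1 and −0.22 (SE 0.55) for Tmod1. Add2, the beta subunit of adducin, was the exception to the shared direction, at 355 and 669 TMM CPM in the hairpins and 458 in the control. Its hairpins lay on opposite sides of the control, its log2 fold change was 0.16 (SE 0.59), and hairpin 2 was the only one of the 18 values outside the range of the controls.

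The 12 erythroid markers all lay lower in the Bloodlinc knockdown as well, beside 44.6% of all genes, and 0 passed, beside 0.124% of all genes. Their summed levels were 48986 and 41979 TMM CPM in the hairpins and 84920 in the control, with a median log2 fold change of −0.83. The 9 genes gave 14.6 and 15.1 counts per 100 erythroid marker counts in the hairpins and 11.8 in the control. The ratio was higher in the hairpins against the globin markers alone, at 32.5 and 29.6 per 100 counts and 23.8 in the control. It was also higher against the markers other than globins, at 26.5 and 31.0 and 23.3. Of the single genes, only Mpp1 was lower there in both hairpins, at 1.53 and 1.52 and 1.71 in the control. Epb42 was lower in hairpin 1 only, and Epb41 in hairpin 2 only. The part of this shift in the values of the 9 genes was not tested. Macrophage markers summed to 31.7 and 48.0 TMM CPM in the hairpins and 50.3 in the control, and granulocyte markers to 41.3 and 52.8 and 100.5.

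**Figure D3:**
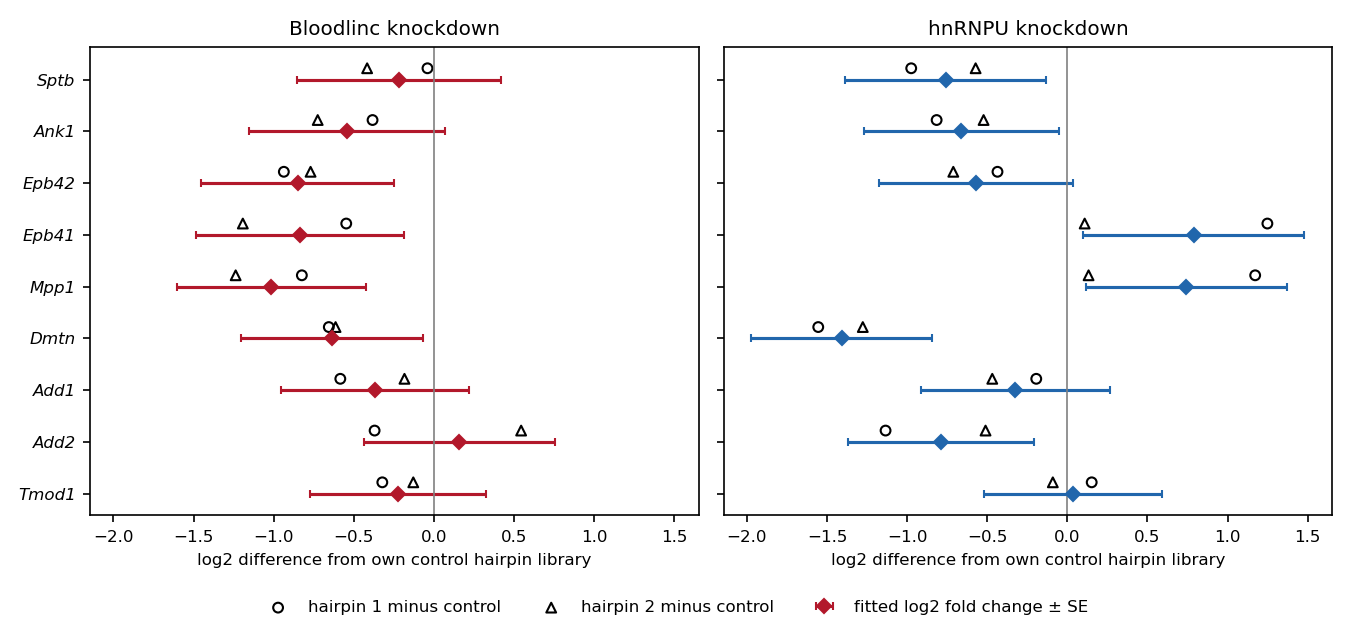
Log2 difference of each of the 9 genes from the control hairpin library of the same knockdown, in the Bloodlinc knockdown (left) and the hnRNPU knockdown (right); diamonds are the fitted log2 fold changes with SE bars, open circles hairpin 1 and open triangles hairpin 2. In the Bloodlinc panel 8 of 9 diamonds lie below 0, and in the hnRNPU panel Epb41 and Mpp1 lie above 0 at 0.79 and 0.74 while Dmtn is lowest at −1.41.

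The hnRNPU knockdown asked the same for hnRNPU. The 9 genes split there: 6 lay below the control in both hairpin libraries, Epb41 and Mpp1 lay above it in both, and Tmod1 lay on either side. None passed edgeR's quasi-likelihood test with Benjamini-Hochberg adjustment (0 of 9), which called 0.879% of all genes. DESeq2 and limma-voom also called 0 of 9, beside 100 and 9 of all 15355 genes. Both hairpins lay below the control for 42.3% of all genes and above it for 28.6%. The median log2 fold change was −0.57 over the 9 and −0.09 over all genes. Other scalings moved the median of all genes to 0.03 with DESeq2's size factors and 0.07 with the upper quartile, and the median of the 9 lay 0.47 below that of all genes with TMM and 0.44 and 0.45 below it with those 2. The gap shrank to 0.16 without hnRNPU hairpin 2, where the median of all genes was −0.28, and to 0.11 with the 3 control libraries pooled, where it was −0.22.

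Of the 9, Dmtn had an unadjusted p under 0.05, as 9.89% of all genes had. It stood at 177 and 214 TMM CPM in hnRNPU hairpins 1 and 2 and 519 in the control, from 299, 544 and 19797 counts. Both hairpins held less than the control by more than 1 unit of log2, and the log2 fold change was −1.41 (SE 0.56, unadjusted p = 0.0127 and adjusted p = 0.330 by edgeR's quasi-likelihood test). Add2 stood at 199 and 306 TMM CPM in the hairpins and 436 in the control, and Add1 at 433 and 358 and 495. The beta subunit gene lay further below its control, at −0.79 (SE 0.58), than the alpha subunit gene, at −0.33 (SE 0.59). Tmod1 stood at 205 and 173 TMM CPM in the hairpins and 185 in the control, a log2 fold change of 0.03 (SE 0.56) that was −0.02 without the filter on low counts.

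The 3 members at the ankyrin contact lay below the control together. Sptb stood at 978 and 1292 TMM CPM in hnRNPU hairpins 1 and 2 and 1921 in the control. Ank1 stood at 677 and 829 TMM CPM in the hairpins and 1191 in the control. Epb42 stood at 538 and 445 TMM CPM in the hairpins and 729 in the control. In all 3 genes each hairpin lay under the control, with log2 fold changes of −0.76 (SE 0.63), −0.66 (SE 0.61) and −0.57 (SE 0.61). Against the Bloodlinc control hairpin library, which held 1698 TMM CPM of Epb42, that gene was at −1.79. It passed there (adjusted p = 0.0238 by edgeR's quasi-likelihood test), the sole member to pass under any setting tried. The share of all genes called in that setting is not given here, so the call is not read as particular to Epb42. In the Bloodlinc control hairpin library, moreover, Hnrnpu stood at 290 TMM CPM, below both hnRNPU hairpin libraries. The target was thus not lowered in this comparison.

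The 2 members at the protein 4.1 contact, Epb41 and Mpp1, went the other way, mostly in a single library. Epb41 stood at 5356 and 2430 TMM CPM in hnRNPU hairpins 1 and 2 and 2255 in the control. Mpp1 stood at 1289 and 627 TMM CPM in the hairpins and 572 in the control. Hairpin 1 lay 1.25 and 1.17 above the control on the log2 scale in Epb41 and Mpp1, while hairpin 2 lay only 0.11 and 0.13 above it. The fitted log2 fold changes were 0.79 (SE 0.69, adjusted p = 0.766 by edgeR's quasi-likelihood test) for Epb41 and 0.74 (SE 0.63, adjusted p = 0.757) for Mpp1. The hairpin 1 values of these 2 genes were among the 3 of 18 that fell outside the range of the 3 control libraries, the other being Tmod1 in the same library. No share over all genes was taken for this count. The contacts as a whole did not split this way. Outside the members, the glycophorin C gene Gypc of the protein 4.1 contact lay lower, at 147 and 184 TMM CPM in the hairpins and 296 in the control. Its log2 fold change was −0.84 (SE 0.55). The band 3 gene Slc4a1 of the ankyrin contact lay on either side, at 6957 and 5051 and 6263, with −0.06 (SE 0.71). Neither passed.

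Summed markers of granulocytes were higher in the hnRNPU hairpin libraries, but not evenly over the list. The 8 granulocyte markers summed to 9254 and 3415 TMM CPM in the hairpins and 1591 in the control. Of them 2, Ltf and Ngp, rose, beside 0.879% of all genes called (adjusted p = 0.0136 and 0.0151 by edgeR's quasi-likelihood test). They were past the threshold under 8 and 9 of 15 alternative settings. Their log2 fold changes were 2.71 and 2.73, and those of Camp, S100a8 and S100a9 were 2.07, 2.14 and 2.28. Elane, Prtn3 and Mpo were nearer level, at 0.12, 0.25 and 0.37. The 10 macrophage markers summed to 1547 and 473 TMM CPM in the hairpins and 237 in the control, mostly from Lyz2, which neutrophils also express. Adgre1 stood at 17.1 and 11.4 TMM CPM in the hairpins and 4.64 in the control, Csf1r at 44.9 and 13.0 and 12.5, and Cd68 at 12.4 and 3.55 and 3.15. C1qa and Cd5l were at 0 counts in the 3 libraries. Of the 8 macrophage markers tested 1 lay lower, beside 53.4% of all genes, and 0 passed, with a median log2 fold change of 1.46. Erythroid markers summed to 106623 and 57867 TMM CPM in the hairpins and 65341 in the control. The 9 genes gave 11.1 and 14.7 counts per 100 globin marker counts in the hairpins and 17.1 in the control, but 56.2 and 53.3 per 100 counts of the other erythroid markers in the hairpins and 49.2 in the control. The higher sum against the other erythroid markers came from Epb41, at 30.6 and 19.4 per 100 in the hairpins and 13.4 in the control, with Mpp1 at 7.35 and 5.01 and 3.39 and a small part from Tmod1. The other 6 genes were lower against these markers in both hairpins, such as Dmtn at 1.01 and 1.71 and 3.08 in the control. None of these ratios was tested. Over the 8 libraries megakaryocyte markers summed to 55.1 to 121, mast cell markers to 4.73 to 36.6, hepatocyte markers to 0.351 to 12.7 and lymphoid markers to 0.351 to 4.73 TMM CPM. The part of any of these in the values of the 9 genes was not tested.

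The difference between the 2 knockdowns was tested directly, as the Bloodlinc log2 fold change minus the hnRNPU log2 fold change. None of the 9 passed (0 of 9 by edgeR's quasi-likelihood test, which called 0.326% of all genes). DESeq2 and limma-voom also called 0 of 9, beside 16 and 3 of all 15355 genes. Mpp1 differed by −1.76 (SE 0.87, unadjusted p = 0.0433, with adjusted p = 1 after rounding) and Epb41 by −1.62 (SE 0.95, unadjusted p = 0.0893), in the same test. Mpp1 was the only member with an unadjusted p under 0.05, as 4.11% of all genes had. Add2 differed by 0.95 (SE 0.84), Dmtn by 0.77 (SE 0.82) and Sptb by 0.54 (SE 0.91), each from a value closer to 0 in the Bloodlinc knockdown. The 4 others lay between −0.28 and 0.12.

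With the Bloodlinc vector the 9 genes stayed close to the empty vector library. None was past 1.5-fold in either direction (0 of 9), against 8.54% of all genes, and 8 of 9 were above a ratio of 1, against 51.3% of all genes. No test was run on this pair, which has 1 library on each side, and intervals cover counting error only. Sptb stood at 746 TMM CPM with the Bloodlinc vector and 639 with the empty vector, a log2 ratio of 0.22 (95% interval 0.20 to 0.25). Ank1 stood at 416 TMM CPM with the Bloodlinc vector and 357 with the empty vector, Epb42 at 215 and 187, and Epb41 at 1171 and 1124. Dmtn, Add1, Add2 and Tmod1 had log2 ratios of 0.13, 0.18, 0.23 and 0.25. Mpp1 stood at 187 TMM CPM with the Bloodlinc vector and 190 with the empty vector, a log2 ratio of −0.02 (95% interval −0.07 to 0.02). The median log2 ratio was 0.20 over the 9 and 0.01 over all genes. The Bloodlinc vector library lay within the range of the 3 controls for 8 of 9 genes, and outside it only for Mpp1, as for 29.4% of all genes. Against the mean of the 3 controls, which includes the 2 higher hairpin controls, the median log2 ratio was −0.98 and 8 of 9 were past 1.5-fold, all lower. The share of all genes past 1.5-fold against that mean is not given here, so the count is not read as particular to the 9. Erythroid markers summed to 26229 TMM CPM with the Bloodlinc vector and 23938 with the empty vector.

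Shares within a library do not depend on the scaling between libraries, and they set out how the make-up of the skeleton transcripts varied. Epb41 took 54.4% of the counts of the 9 genes in hnRNPU hairpin 1 (95% exact Clopper-Pearson interval 53.6% to 55.1%), 36.4% in hnRNPU hairpin 2 and 27.2% in their control. In the Bloodlinc knockdown it took 25.1% and 18.05% in hairpins 1 and 2 and 26.2% in their control. It took 35.7% with the Bloodlinc vector and 37.8% with the empty vector. Sptb moved the other way in hnRNPU hairpin 1, at 9.92%, beside 19.4% in hairpin 2 and 23.1% in the control. The Epb41 to Sptb count ratio was thus 5.48 and 1.88 in hnRNPU hairpins 1 and 2 and 1.17 in their control. In the Bloodlinc knockdown the same ratio was 0.983 and 0.816 in the hairpins and 1.40 in the control, so the sides of the 2 knockdowns differed here too.

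**Figure D4:**
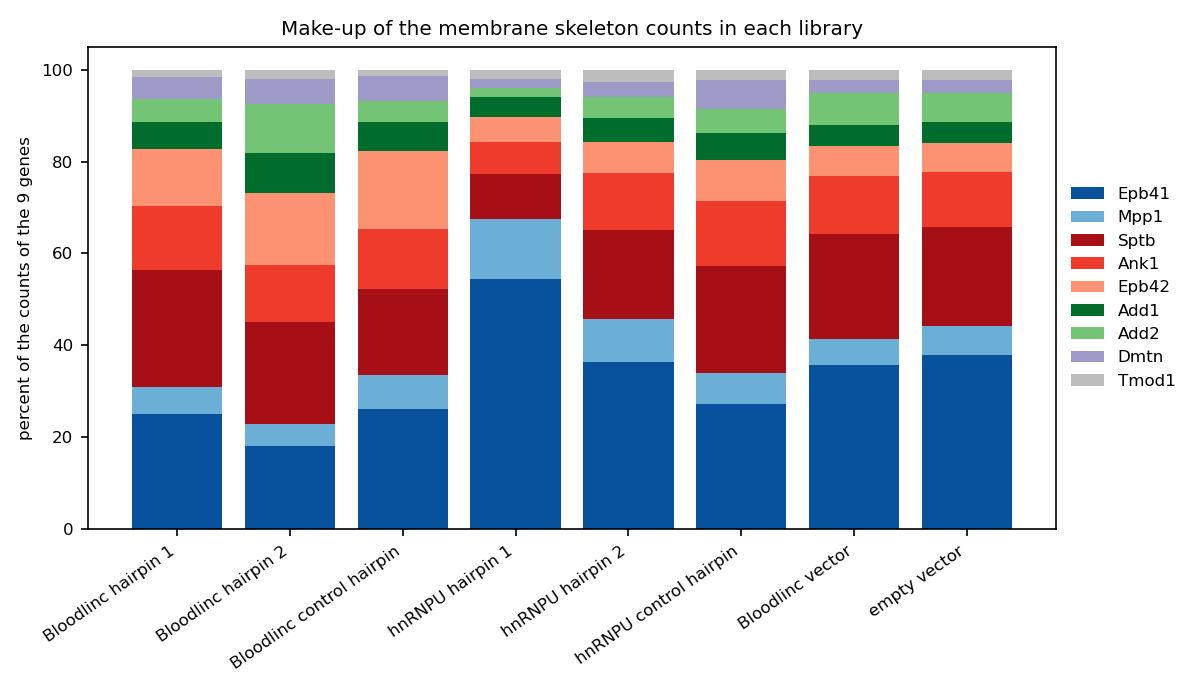
Share of each gene in the counts of the 9 genes (percent, stacked to the whole) in the 8 libraries, with each treated library left of its control. The Epb41 block takes 54.4% in hnRNPU hairpin 1 and 36.4% in hnRNPU hairpin 2, and 18.05% to 37.8% in the other 6 libraries.

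Some partners within the skeleton kept a similar proportion in many of the libraries, and others did not. Mpp1 to Epb41, the 2 members at the protein 4.1 contact, gave count ratios of 0.231 and 0.271 in the Bloodlinc hairpins and 0.280 in their control. In the hnRNPU hairpins the ratios were 0.241 and 0.258, with 0.254 in their control. The same ratio was 0.160 with the Bloodlinc vector and 0.169 with the empty vector. Ank1 to Sptb lay between 0.546 and 0.693 in all 8 libraries. Adducin subunits were less steady: Add2 to Add1 was 0.832 and 1.19 in the Bloodlinc hairpins and 0.718 in their control, 0.459 and 0.856 in the hnRNPU hairpins and 0.881 in their control, and 1.46 with the Bloodlinc vector and 1.42 with the empty vector. Over the 8 libraries Epb42 to Ank1, also of the ankyrin contact, ran from 0.516 to 1.31 and Dmtn to Add1 from 0.408 to 1.05. Dmtn to Sptb ran from 0.123 to 0.287 and Tmod1 to Sptb from 0.0601 to 0.210. As a measure of likeness, each gene's log2 TMM CPM was centred on its mean over the 8 libraries. The root mean square difference was then taken for all 36 pairs. Sptb and Ank1 were the closest pair at 0.14, Epb41 and Mpp1 the second at 0.29, and Add2 and Mpp1 the farthest at 1.04.

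Other genes tied to the skeleton were read from a list of 25 membrane and actin partners. In the Bloodlinc knockdown 0 of 25 passed, beside 0.124% of all genes, and 19 lay lower, beside 44.6% of all genes, with a median log2 fold change of −0.37. Its most abundant members were Slc4a1, the gene of band 3, at 7709 and 5507 TMM CPM in the hairpins and 13367 in the control, and Slc2a1, the gene of the glucose transporter GLUT1, at 5603 and 2605 and 5656. In the hnRNPU knockdown 2 of 25 fell and 0 rose, beside 0.879% of all genes called. They were Aqp1, the water channel, at 4.73 and 33.5 TMM CPM in the hairpins and 80.1 in the control (log2 fold change −2.03, SE 0.55, adjusted p = 0.0389 by edgeR's quasi-likelihood test), and Icam4, a blood group adhesion protein, at 13.0 and 18.5 and 61.6 (−1.95, SE 0.55, adjusted p = 0.0462). Aqp1 rested on 8 and 85 counts in the hairpins and Icam4 on 22 and 47, and they passed under only 3 and 2 of 15 alternative settings, with neither DESeq2 nor limma-voom calling them. Of the 25, 15 lay lower there, beside 53.4% of all genes, with a median of −0.11. With the Bloodlinc vector their median log2 ratio was 0.10.

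Of 10 erythroid regulators, 9 lay lower in the Bloodlinc knockdown (median log2 fold change −0.38), beside 44.6% of all genes, and 10 lay lower in the hnRNPU knockdown (median −1.10), beside 53.4% of all genes. None passed in either (0 of 10). Nfe2, a leucine zipper subunit, stood at 343 and 397 TMM CPM in the Bloodlinc hairpins and 657 in their control, and at 508 and 309 in the hnRNPU hairpins and 535 in their control. Tal1, a partner of GATA1, stood at 448 and 216 TMM CPM in the Bloodlinc hairpins and 665 in their control, and at 215 and 318 in the hnRNPU hairpins and 565 in their control. With the Bloodlinc vector the 10 had a median log2 ratio of 0.09.

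The genes whose pattern lay closest to the mean of the 9 were sought among 8319 other protein-coding genes with a mean of at least 5 TMM CPM. The 8 closest were Abca7, Fam210b, Tst, Klf3, Fzr1, Cabin1, E2f2 and Sec61g, at root mean square differences of 0.13 to 0.18 on the log2 scale over the 8 libraries. The median over all candidates was 0.81, and the 9 genes themselves lay between 0.18 for Ank1 and 0.61 for Epb41. These 8 were chosen for this likeness, which is a description. E2f2, a cell cycle transcription factor, stood at 435 and 362 TMM CPM in the Bloodlinc hairpins and 534 in their control, at 450 and 334 in the hnRNPU hairpins and 617 in their control, and at 203 with the Bloodlinc vector and 160 with the empty vector. Ank1, Add1 and Sptb lay closest to the shared pattern, while Epb41, Mpp1, Add2 and Epb42 strayed furthest from it.

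**Figure D5:**
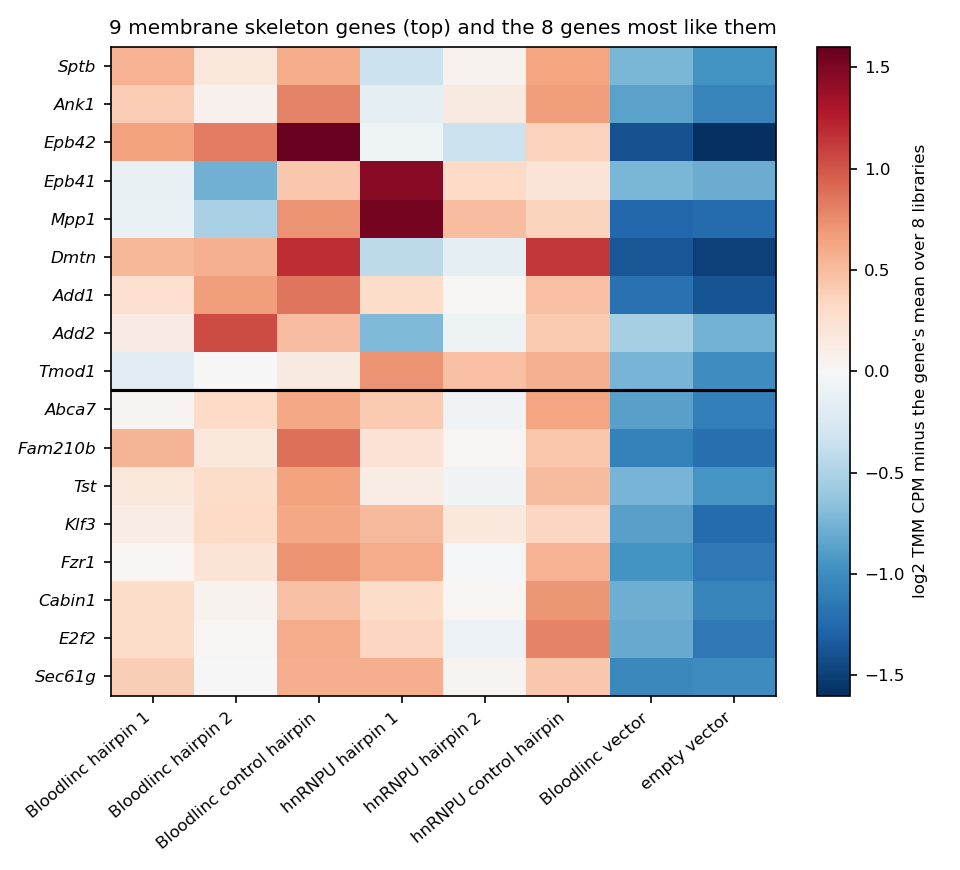
Log2 TMM CPM minus each gene's mean over the 8 libraries (colour, red above and blue below the mean) for the 9 genes (above the line) and the 8 genes most like their mean (below it). The Bloodlinc vector and empty vector columns are blue throughout, and Epb41 and Mpp1 stand out red in hnRNPU hairpin 1.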

How the data were processed

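The authors deposited 1 table of raw read counts per Ensembl gene for each of the 8 libraries. Per the submitters' processing notes, reads were mapped with TopHat2 2.0.11 to mm9 and counted with HTSeq. The HTSeq version, its strand setting and the annotation release are not given in the sources used here. The deposited counts summed to 2612916 to 34540691 in genes, so 3 counts corresponded to 0.0869 to 1.15 CPM, and summary entries for reads outside genes, at 21.7% to 89.7% of the reads, were kept out of library sizes. Of the 37620 gene IDs, 87.5% matched a gene symbol in the reference tables.

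Counts were fitted with edgeR 4.0.16 in R 4.3.3, with TMM scaling, its default filter by group and the quasi-likelihood test, in 1 model of 6 groups with 2 residual degrees of freedom, and p-values were adjusted over all 15355 genes. Only the hairpin pairs repeat, so single libraries were assumed to vary as they do. For log2 levels of single libraries the prior count was 2. DESeq2 1.42.0 and limma 3.58.1, other scalings, filters, controls and left-out libraries were alternatives, and the fit was tested on simulated data.

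All 9 genes are named. From each other list, the genes past the threshold are named (at most 4), or else the 2 with the highest mean level, and a family's other genes beside their levels. The 9 genes, the lists and the alternatives were chosen with earlier results of these data known. Gypc and Slc4a1 in the hnRNPU knockdown, Sptan1 and Sptbn1 in the closing observations, and the ratios within libraries, were chosen after their values were seen. The Hba and Hbb genes among the erythroid markers have near-identical copies, and reads could be split between them.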

Additional observations from a re-analysis of the deposited data

Results flagged for a closer look

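Epb41 and Mpp1 were flagged because every Bloodlinc hairpin library lay below its control and every hnRNPU hairpin library lay above its control. Over all genes, both Bloodlinc hairpins lay below the control for 30.7%, and both hnRNPU hairpins lay above it for 28.6%. The share of genes with both patterns at once was not counted, so the joint pattern is not read as particular to these 2 genes. The Bloodlinc log2 fold change minus the hnRNPU log2 fold change was −1.62 (SE 0.95) for Epb41 and −1.76 (SE 0.87) for Mpp1. The difference was tested by edgeR's quasi-likelihood test and did not pass for either gene (adjusted p = 1 after rounding for both, unadjusted p = 0.0893 for Epb41 and 0.0433 for Mpp1). Without hnRNPU hairpin 1 the differences were −0.91 for Epb41 and −1.12 for Mpp1. hnRNPU hairpin 1 is also the library with the highest summed granulocyte markers, at 9254 TMM CPM, and with 89.7% of reads outside genes, and the part of either in the difference was not tested. No group held the 4 libraries that a check for a stray library needs.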

How the results depend on the processing

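With SEs of 0.55 to 0.69 for single members, the counts of 0 called say little about stability. Against the Bloodlinc control hairpin library, 1 member, Epb42, passed in the hnRNPU knockdown, a setting for which the share of all genes called is not given. The hnRNPU median of −0.57 was −0.41 with DESeq2 and with its size factors, −0.38 with the upper quartile, −0.62 with no filter, −0.36 with at least 5 CPM in 2 libraries, −0.40 with only its 3 libraries, −0.73 against the other control hairpin, −0.33 against 3 pooled controls, −0.34 with all libraries thinned to the shallowest, and −0.52 to −0.44 with a hairpin left out, beside medians of all genes of −0.22 with pooled controls and −0.28 without hairpin 2. The Bloodlinc median of −0.54 was −0.42 against the other control hairpin, −0.0908 against 3 pooled controls, −0.45 after thinning and −0.59 to −0.55 with a hairpin left out. Against the mean of 3 controls, 8 members were past 1.5-fold with the Bloodlinc vector, with a median of −0.98, and the share of all genes is not given. Signs turned in the Bloodlinc knockdown for Epb42 against the other control hairpin (0.37), for Sptb (0.13), Epb42 (0.11) and Add1 (0.22) against pooled controls and for Add2 (−0.37 to 0.57 with a hairpin left out, below 0 without hairpin 2). They turned in the hnRNPU knockdown for Tmod1 (−0.0177 with no filter, −0.10 to 0.15 with a hairpin left out, below 0 without hairpin 1). In the difference of the knockdowns they turned for Ank1 with DESeq2 (−0.0554), its size factors (−0.0553), the upper quartile (−0.0609), the 5 CPM filter (−0.0540) and without Bloodlinc hairpin 1 (−0.0144 to 0.28 with a hairpin left out), and for Add1 without Bloodlinc hairpin 1 or hnRNPU hairpin 1 (−0.27 to 0.19 with a hairpin left out). The cause was not tested. Over all genes, 19 passed in the Bloodlinc knockdown (0 to 1043 under alternatives) and 135 in the hnRNPU knockdown (7 to 2340). Protein-coding genes alone, and a fit without the hnRNPU hairpin libraries, were chosen after seeing the data. No paired analysis was possible because each knockdown has a single control library, which has no hairpin to pair with. No control library could be left out, since each comparison has 1, and the hnRNPU values rest on the fewest counts.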

Other observations

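The non-erythroid spectrins, which most other cells use for their membrane skeleton, were highest in the hnRNPU hairpin libraries. Sptan1, the alpha subunit gene, stood at 93.4 and 52.8 TMM CPM in hnRNPU hairpins 1 and 2 and 27.5 in their control (log2 fold change 1.40, SE 0.59, adjusted p = 0.363 by edgeR's quasi-likelihood test). Sptbn1, a beta subunit gene, stood at 138 and 74.8 TMM CPM in the same hairpins and 40.3 in their control (log2 fold change 1.40, SE 0.58, adjusted p = 0.358). In the Bloodlinc knockdown Sptan1 stood at 8.42 and 38.4 TMM CPM in hairpins 1 and 2 and 4.97 in their control, and Sptbn1 at 7.80 and 49.8 and 5.84. Hairpin 2 held most of that difference, and the log2 fold changes of 2.24 (SE 0.63) and 2.30 (SE 0.62) did not pass (adjusted p = 0.180 and 0.138 by the same test). With the Bloodlinc vector Sptan1 stood at 32.7 TMM CPM and with the empty vector at 33.9, and Sptbn1 at 43.4 and 43.5.

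Tgm2, a transglutaminase related to protein 4.2, stood at 36.1 and 66.6 TMM CPM in the hnRNPU hairpins and 139 in their control, and at 114 and 189 in the Bloodlinc hairpins and 126 in their control. Its log2 fold change was −1.43 (SE 0.53) in the hnRNPU knockdown and 0.26 (SE 0.55) in the Bloodlinc knockdown, neither past the threshold (adjusted p = 0.255 and 1 by edgeR's quasi-likelihood test). Over the 22 other family members, the 19 tested had a median log2 fold change of 0.36 in the Bloodlinc knockdown, 0.16 in the hnRNPU knockdown and 0.05 with the Bloodlinc vector.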
